A study of Mus musculus with 2 samples.

Results

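The cells described here are 1548 mouse lung fibroblasts of the saline library that carried alveolar fibroblast transcripts and in which no transcript of Slc7a10, Colq or Mapt was counted. They were chosen by their UMI counts of the genes named below, among 8396 saline barcodes, of 18534 barcodes in both libraries of the study. A quality filter of at least 500 genes, at least 4000 unique molecular identifiers (UMIs, each counting 1 captured transcript) and at most 10% mitochondrial UMIs left 7414 saline cells, of which the 1548 made up 20.9% [19.96–21.8]. An alveolar fibroblast had to hold at least 1 UMI of at least 4 of the 8 markers Tcf21, Npnt, Limch1, Wnt2, Itga8, Fgfr4, Scube2 and Col13a1. It also had to hold no UMI of Pi16, Myh11, Hhip, Mki67 or Top2a, under 3 UMIs of Hp and under 2 of Cxcl9. Of the 4397 saline cells that met these marker and exclusion criteria, the 1548 with no UMI of the 3 genes (35.2% [33.8–36.6]) are called negative cells, and the 2849 with at least 1 UMI are called positive cells. Brackets hold 95% intervals, exact Clopper-Pearson for shares, exact Poisson for levels and exact conditional binomial for ratios, and they cover counting error only.

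Alveolar fibroblasts lie in the alveolar wall beside the epithelium and the capillaries, where they store lipid, metabolise retinoids, lay down collagen and elastic fibres and send growth factors to neighbouring cells. They are distinguished from adventitial fibroblasts, which wrap airways and larger vessels and carry Pi16, Dcn and Ly6a, and from Hhip-positive airway myofibroblasts and Myh11-positive smooth muscle. Slc7a10 encodes the transporter Asc-1, which moves small neutral amino acids such as glycine, alanine and D-serine. Colq encodes the collagen tail that anchors acetylcholinesterase, and Mapt encodes the microtubule-binding protein tau.

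The study profiled lung mesenchyme that had been labelled through the leptin receptor gene, after bleomycin, a drug used to injure the lung and provoke fibrosis, and after saline. Mice were Lepr-CreERT2;Rosa26-tdtomato, 8 to 10 weeks old, and both treatments used this genotype. In these mice a Cre recombinase that tamoxifen activates is made under control of Lepr, and it switches on tdTomato for good, so a labelled cell need not carry Lepr at collection. Lungs were digested with collagenase-IV, dispase II and DNase I, live cells were sorted as tdTomato+ and CD45-, EpCAM-, CD31-, and their RNA went into 10x 3' v3 libraries. Each treatment had 1 library. The sources used here do not give how many mice each library drew on, how much bleomycin they received, when tamoxifen was dosed or when lungs were taken. With 1 library per treatment there was no replicate spread to test against, so differences below are described by size and counting error, and no p-value is given.

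The bleomycin library held 10138 barcodes with 134732429 UMIs and a median of 11662 UMIs, against 8396 barcodes, 60937359 UMIs and a median of 6762 in saline. The 2 libraries shared 25 barcodes, of which 4 were negative cells. The doublet caller Scrublet marked 66 of 8350 saline cells (0.790%), 4 of them negative and 4 positive, and no cell was removed for it. It marked none of 10001 bleomycin cells and so cannot be taken to have worked there. In saline, 50 cells with at least 6 of 12 epithelial genes, at a median of 5990 UMIs, served as a background for transcripts that fibroblasts make.

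Negative cells had a median of 7353.5 UMIs (range 4006 to 21720) and 2356 genes, against 6507 UMIs (4002 to 23145) and 2262 genes in positive cells. Mitochondrial UMIs had a median of 1.87% in negative and 1.85% in positive cells. The share of negative cells among alveolar fibroblasts was 25.7% [23.4–28.0] at 4000 to 6000 UMIs, 34.2% [31.9–36.5] from 6000 to 8000, 49.3% [46.2–52.4] from 8000 to 12000 and 39.2% [32.5–46.1] above. The share was larger in each deeper bin than in the shallowest. Most positive cells held few such transcripts, with a median of 2, 979 cells at exactly 1, 686 at 2 and a highest count of 11. When every cell was first thinned to 4000 UMIs and the choice then made, 46.8% of alveolar fibroblasts were negative. How far missed transcripts set the choice was not tested.

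**Figure D1:**
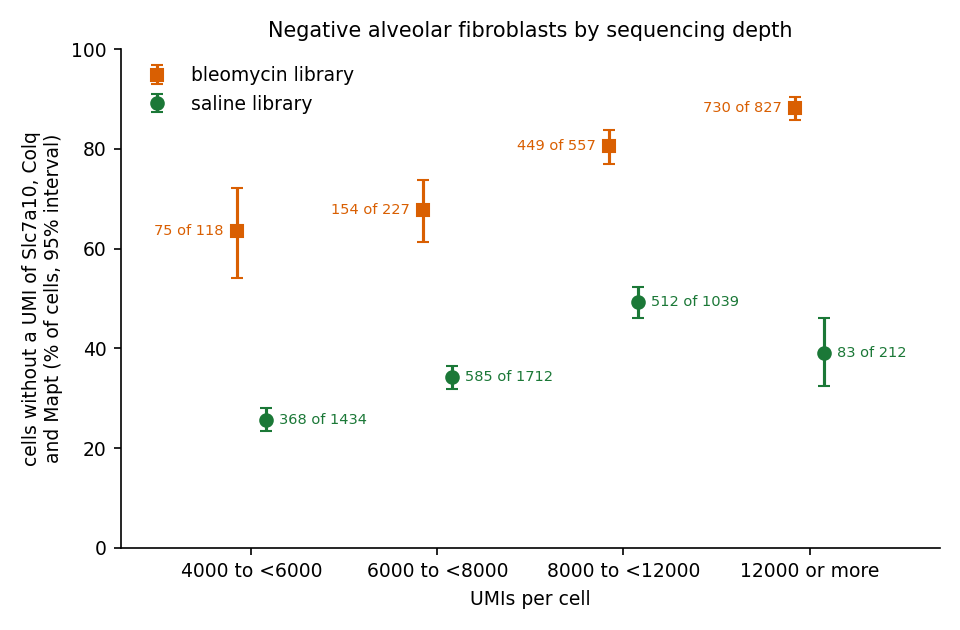
Percent of alveolar fibroblasts with no UMI of Slc7a10, Colq or Mapt (y axis) in bins of UMIs per cell (x axis), for the bleomycin and the saline library, with exact 95% intervals. Bleomycin shares ran between 63.6% and 88.3%, and saline shares between 25.7% and 49.3%.

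Alveolar markers that took no part in the choice were set beside the label. At 4000 UMIs negative cells had a UMI of a median of 11 of 19 such markers, against 13 in positive cells. Some of them are common in adventitial cells too. In 549 saline cells with at least 3 UMIs of Pi16, Gpc3 had a UMI in 86.2% and Fmo2 in 86.0%, against 82.8% and 97.4% of negative cells. Cdo1 had a UMI in 11.7% and Ces1d in 10.2% of these Pi16-positive cells, against 65.8% and 50.5% of negative cells. Tcf21, a transcription factor of lung mesenchyme, stood at 458 CPM (UMIs summed over the cells of a group and scaled to the group's total) in negative and 767 in positive cells. In the Pi16-positive cells it stood at 324 CPM. Npnt, the matrix ligand nephronectin, stood at 1053 CPM in negative and 1707 in positive cells, against 151 CPM in the Pi16-positive cells. All 8 markers that chose the cells were lower in negative cells, between a ratio of 0.408 for the receptor Fgfr4 (26.5 against 65.0 CPM) and 0.801 for Limch1 (1298 against 1620 CPM). As these counts chose the cells, they are given as a description. Of the negative cells, 255 held exactly 4 of the markers, 527 held 5, 448 held 6, 265 held 7 and 53 held all 8, while among positive cells these numbers were 115, 483, 892, 973 and 386. Just outside the limit, 105 cells without and 19 cells with a UMI of the 3 genes held 3 markers and met the other criteria.

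The 3 defining genes went together in cells that were chosen without the gene in question. These genes lie on different chromosomes of GRCm38, Slc7a10 on chromosome 7 from 35186385 to 35201114, Colq on chromosome 14 from 31523082 to 31591343 and Mapt on chromosome 11 from 104231390 to 104332090. Slc7a10 was measured at 65.2 CPM [61.4–69.2] in 2257 cells negative for Colq and Mapt, against 143 CPM [137–149] in 2140 cells positive for either, a ratio of 0.457. Colq stood at 25.1 CPM in cells negative for the other genes and 74.2 CPM in positive cells (ratio 0.339), and Mapt at 43.1 and 104 CPM (0.415). Each gene was lower, but counted, where the other genes were not. With every cell thinned to 4000 UMIs, which lost no cell, Slc7a10 had a UMI in 22.8% of cells negative for the other genes and in 42.7% of positive cells, and unthinned in 31.4% and 56.6%. It had a UMI in 1.46% of Pi16-positive cells (2.73% unthinned, median 7305 UMIs) and in 0 of 50 epithelial-gene cells, which allows a share of up to 7.11%. Among cells with 0 or 1 adventitial marker the ratios were 0.721 for Slc7a10, 0.529 for Colq and 0.652 for Mapt, and among cells with at least 7 of the 8 alveolar markers they were 0.642, 0.490 and 0.561.

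Among the 7659 genes that reached 10 CPM in negative or positive cells, 399 were at least 1.5-fold higher in negative cells with an interval clear of 1, which is 5.21% of genes, and 329 (4.3%) were at least 1.5-fold lower, together 9.51%. Scaling by trimmed mean of M values (TMM) gave 488 higher and 248 lower, a shift of 0.07 on the log2 scale. The median log2 ratio of all these genes was -0.09. Counts of list members below are to be read beside these shares. A gene that reaches 10 CPM in only 1 of the groups had to differ, so a count over genes that passed this minimum is a description of them and not of all genes.

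The gene with the highest ratio was Adh7, an alcohol dehydrogenase that oxidises retinol and marks adventitial fibroblasts, at 10.7 CPM in negative and 0.600 in positive cells, a ratio of 17.9 [9.91–35.6]. Its ratio was 9.86 among cells with at least 8000 UMIs and 2.04 against positive cells of the quality filter alone. With thinning first, at least 5 markers or Slc7a10 alone its ratios were 40.4, 16.8 and 19.4. There its level fell short of the 10 CPM minimum, so it was not called. Sema3d, a secreted axon and vessel guidance cue, stood at 32.1 and 4.10 CPM (7.82 [6.15–10.1]), and the membrane protein gene Ildr2 at 34.3 and 4.45 CPM (7.71 [6.12–9.81]). Ly6a, the surface protein Sca-1, stood at 58.3 CPM in negative and 8.39 in positive cells (6.94). Olfml2b (6.39) and Adamtsl1 (6.36) had ratios in the same range, and the tetraspanin gene Cd9 stood at 42.0 and 6.89 CPM. Adh7 and the remaining higher named genes came from few cells. Unthinned, Adh7 had a UMI in 61 negative cells (3.94%) and 8 positive cells (0.281%). The 15 members with most UMIs held 50.4% of the UMIs of Adh7 and 66.9% of those of the EGF-family ligand Ereg. They held 70.8% for the water channel Aqp1 and 91.4% to 100% for the immunoglobulin transcripts Igha, Igkc and Jchain. For the other higher genes named above this share ran from 15.3% for Ildr2 to 32.7% for Cd9.

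The genes with the lowest ratios were Crabp1, which binds retinoic acid in the cytoplasm, at 2.83 CPM in negative and 13.5 in positive cells (0.210 [0.142–0.3005]), and Snhg11 (0.219). Among cells with at least 8000 UMIs, Crabp1 (0.194) and Cobll1 (0.277) fell short of the 10 CPM minimum and were not called. Bmper, a secreted BMP-binding protein, stood at 17.1 and 63.9 CPM (0.267 [0.229–0.310]). Tmem100, a membrane protein downstream of BMP signalling in endothelium, stood at 45.0 CPM in negative and 142 in positive cells (0.317 [0.289–0.348]). Cdkn2c, an inhibitor of cyclin-dependent kinases, stood at 75.8 and 239 CPM (0.318 [0.296–0.341]). Gucy1b1, a subunit of the nitric oxide receptor guanylate cyclase, had a ratio of 0.310 and its partner Gucy1a1 0.419. Cntn1 (0.270), Gm14964 (0.287), the fatty acid binding protein gene Fabp3 (0.312), Cobll1 (0.313), the cadherin gene Fat3 (0.316) and Ccdc42 (0.329) completed this group.

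**Figure D2:**
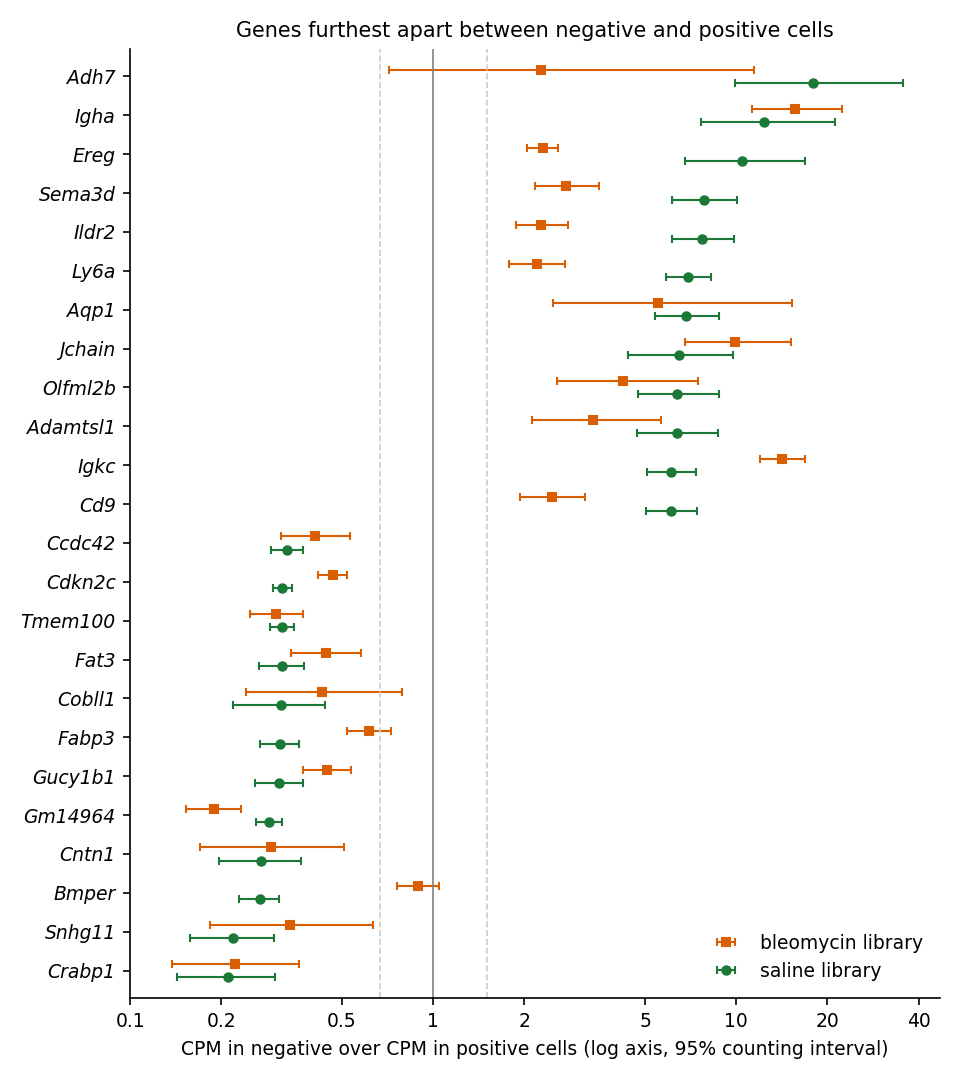
Ratio of CPM in negative over positive cells (log axis) for the 12 highest and 12 lowest named genes, in the bleomycin and the saline library, with exact 95% intervals. Adh7 was at 2.26 in bleomycin and 17.9 in saline, and Bmper at 0.890 in bleomycin and 0.267 in saline.

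Of these 24 genes and Slc7a10, 25 in all, 18 had a promoter in the RefSeq table of the GRCm38.p6 build, each 300 bases long. Where this window lay against the gene's start in the GENCODE coordinates differed between genes. The first sequence is that of the gene that names the cells (chr7:35186135-35186434, + strand), followed by the gene with the highest ratio (chr3:138217523-138217822, + strand) and the gene with the lowest (chr9:54764498-54764797, + strand). Capitals mark matches on either strand of TATAAA, a core promoter box, or TGANTCA, an AP-1 type site.
Slc7a10: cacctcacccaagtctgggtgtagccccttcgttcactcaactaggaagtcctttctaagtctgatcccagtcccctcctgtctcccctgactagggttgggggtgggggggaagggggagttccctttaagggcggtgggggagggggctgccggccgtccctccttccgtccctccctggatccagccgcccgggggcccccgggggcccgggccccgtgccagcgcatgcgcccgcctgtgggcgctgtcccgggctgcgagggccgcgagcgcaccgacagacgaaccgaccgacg
Adh7: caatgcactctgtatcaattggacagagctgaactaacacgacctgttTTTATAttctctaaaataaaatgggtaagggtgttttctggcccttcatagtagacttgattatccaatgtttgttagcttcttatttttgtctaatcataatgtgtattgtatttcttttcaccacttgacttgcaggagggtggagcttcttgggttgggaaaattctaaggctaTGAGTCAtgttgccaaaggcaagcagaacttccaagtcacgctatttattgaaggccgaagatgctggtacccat
Crabp1: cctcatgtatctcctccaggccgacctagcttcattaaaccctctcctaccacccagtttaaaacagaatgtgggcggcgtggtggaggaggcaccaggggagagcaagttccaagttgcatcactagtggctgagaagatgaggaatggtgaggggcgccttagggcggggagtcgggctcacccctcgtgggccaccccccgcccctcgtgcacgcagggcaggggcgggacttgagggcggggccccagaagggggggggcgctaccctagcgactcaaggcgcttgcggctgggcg
The Slc7a10 promoter was 70.7% GC with no match, the Adh7 promoter 39.3% GC with 1 TATAAA match on the reverse strand and 1 TGANTCA match, and the Crabp1 promoter 65.0% GC with none. Among promoters of higher genes, 13.9% of 280 held TATAAA, against 6.05% of 248 promoters of lower genes, 6.89% of 6063 tested and 14.2% of all 27025. TGANTCA stood in 11.8% of higher, 5.65% of lower, 4.47% of tested and 7.93% of all promoters. A match is a run of letters and not a measured site.

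Alveolar fibroblast genes that took no part in the choice were lower in part. Of 19 such markers measured, 7 passed the limit as lower and 1 as higher; their median log2 ratio was -0.51, against -0.09 for all genes. Cdo1, the cysteine dioxygenase that leads to taurine, stood at 389 CPM in negative and 861 in positive cells (0.452 [0.437–0.467]). The carboxylesterase gene Ces1d had a ratio of 0.511, the lymphatic growth factor gene Vegfd 0.595, the flavin monooxygenase gene Fmo2 0.620 and the PDGF receptor gene Pdgfra 0.666. Nebl (0.619) and Gyg (0.623) were lower as well, and the 1 higher gene was the lung mesenchymal transcription factor Foxf1 (98.2 against 48.8 CPM, 2.01). Inmt, a methyltransferase typical of these cells, stood at 3074 CPM in negative and 4384 in positive cells (0.701) and did not reach the 1.5-fold limit. Inmt in negative cells still exceeded the 1157 CPM of Pi16-positive cells.

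Adventitial fibroblast genes were the list that stood furthest on the other side. Of 10 measured, 8 were higher and none lower, with a median log2 ratio of 2.20. Some, such as Adh7 at 10.7 and 0.600 CPM, reached the 10 CPM minimum in negative cells alone. Such genes had to be higher, so the minimum set part of this count. The collagen-binding proteoglycan decorin, Dcn, stood at 425 CPM in negative and 76.5 in positive cells (5.55 [5.24–5.88]), against 4195 CPM in Pi16-positive cells. At 4000 UMIs it had a UMI in 29.7% of negative, 9.34% of positive and 2.00% of epithelial-gene cells, and unthinned in 39.1%, 14.1% and 2.00%. The proteoglycan gene Lum (5.63), Serpinf1 (4.92), which encodes an antiangiogenic serpin, Igfbp4 (4.28), which binds insulin-like growth factors, the hyaluronan synthase gene Has1 (3.42) and Col14a1 (3.25) were higher with Adh7 and Ly6a. Cd34 (1.03) and Clec3b (1.06), which also mark adventitial cells, were at a similar level in both groups. The 17 adventitial markers other than Pi16 summed, at 4000 UMIs, to 1832 CPM in negative and 799 CPM in positive cells.

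Other cell types moved with the contrast in part. Of 4 measured pericyte genes, the channel subunits Abcc9 (6.09) and Kcnj8 (4.71) and the receptor gene Pdgfrb (1.73) were higher and Gucy1a1 lower. Abcc9 and Kcnj8 reached 10 CPM in negative cells alone and so had to be higher to some degree. The pericyte genes Rgs5 and Vtn had no UMI, and the summed list stood at 129 CPM in negative and 84.7 in positive cells. Of 3 measured smooth muscle genes, Acta2 was higher (2.19) and Tagln (0.500) and Des (0.540) were lower. Epithelial genes summed to 211 and 161 CPM with 4 of 5 measured higher, leukocyte genes to 48.8 and 26.3 CPM with 2 of 2 higher and the pan-leukocyte gene Ptprc at 1 UMI, endothelial genes to 10.5 and 6.58 CPM, and mesothelial genes to 76.2 and 136 CPM. Cells with at least 3 epithelial markers numbered 12 negative and 18 positive. Leaving out cells with 3 or more markers of another type kept 23 of the 24 named genes past the limit, with Jchain lost. The part of adventitial and pericyte transcripts in the genes below was not tested beyond the values by adventitial marker number.

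Part of the genes of fibrillar matrix and its turnover were higher. Of 20 measured genes of fibrillar collagens and their partners, 9 were higher and none lower, with a median log2 ratio of 0.56. Col3a1 stood at 1843 CPM in negative and 969 in positive cells (1.90 [1.86–1.94]), Col1a1 at 875 and 519 CPM (1.68), and Col5a3 had a ratio of 2.41. Elastic fibre genes had 4 of 16 higher, with tropoelastin, Eln, at 907 and 538 CPM (1.69), Fbln2 at 4.09, Mfap5 at 2.22 and Mfap2 at 2.02. Among proteases and their inhibitors 8 of 18 were higher and none lower, including the stromelysin gene Mmp3 (517 against 148 CPM, 3.49 [3.34–3.65]), its inhibitor Timp1 (290 against 108 CPM, 2.69) and the collagen-degrading cathepsin gene Ctsk (2.42). Basement membrane genes had 3 of 16 higher, Col15a1 (4.39), Lamc3 (2.30) and Col4a5 (1.75). Of 7 measured genes known from fibrotic fibroblasts, the Wnt antagonist Sfrp1 (2.94), Cilp (3.62), Ltbp2 (2.54), Runx1 (2.02), Eln and Col12a1 (1.61) were higher and Tnc was lower (0.438), while Cthrc1 had 5 UMIs in negative cells.

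Many chemokine and cytokine genes, and about as many complement genes as not, passed the limit as higher. Of 15 cytokine genes 12 were higher, and of 11 genes of inflammatory fibroblasts 7 were higher, with none lower in either list and medians of 0.84 and 0.81. These medians were 0.44 and 0.30 among cells with at least 8000 UMIs, and 1.06 and 1.23 with thinning first. Il6, a cytokine that acts through gp130 receptors, stood at 822 CPM in negative and 362 in positive cells (2.27 [2.20–2.34]). At 4000 UMIs it had a UMI in 64.0% of negative, 39.5% of positive and 10% of epithelial-gene cells, and unthinned in 70.9%, 48.2% and 10%. At 4000 UMIs Il6 also had a UMI in 66.7% of Pi16-positive cells and 61.2% of 601 cells with at least 3 UMIs of Hhip. In 422 cells with at least 3 UMIs of Myh11 its share was 21.1%. Cxcl12, the ligand of CXCR4, stood at 196 and 62.9 CPM (3.12 [2.91–3.34]), and the neutrophil chemokines Cxcl2 and Cxcl1 had ratios of 3.55 and 2.19 and the gp130 cytokine Lif 2.77. Ccl2, a monocyte chemokine, stood at 641 and 521 CPM (1.23) and did not reach the limit. Of 15 complement and acute phase genes 8 were higher, among them C4b (746 against 243 CPM, 3.07 [2.96–3.18]), C2 (2.93) and C3 (1149 against 605 CPM, 1.90). C4b had a UMI at 4000 UMIs in 72.0% of negative, 32.4% of positive and 6% of epithelial-gene cells, and unthinned in 78.9%, 39.7% and 10%.

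Metabolic genes passed the limit in both directions. Of 19 detoxification genes 7 were lower, including the glutathione transferase gene Gsta3 (230 CPM in negative against 514 in positive cells, 0.447 [0.428–0.466]), Mettl7a1 (0.407), Gpx3 (0.599) and Aldh2 (0.651), and 1 was higher, the aldehyde oxidase gene Aox3 (5.66). Among 14 lipid storage genes, the lipase inhibitor G0s2 (643 against 1223 CPM, 0.526), the monoglyceride lipase gene Mgll (0.544) and Dgat2 (0.657), which makes triglyceride, were lower. Lpl, the lipase that frees fatty acids from lipoproteins, was higher (110 against 35.2 CPM, 3.14 [2.86–3.44]), as was Hilpda (25.4 against 16.9 CPM), an inhibitor of lipolysis. Retinoid genes had 3 of 13 higher and 2 lower. The plasma retinol carrier Rbp4 stood at 308 CPM in negative and 60.7 in positive cells (5.08 [4.76–5.42]), with a UMI at 4000 UMIs in 32.0% of negative, 8.11% of positive and 4.00% of epithelial-gene cells, and unthinned in 39.4%, 11.2% and 6%. Rdh10 (2.53), which oxidises retinol, was higher, and the retinaldehyde dehydrogenase gene Aldh1a1 was lower (516 against 837 CPM, 0.616). Of 8 measured amino acid transport genes, only the neutral amino acid transporter gene Slc1a4 passed the limit (0.567), near the 9.51% over all genes. Slc3a2, the shared heavy chain of other transporters, was at 1.02.

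Among signals to epithelium and vessels, some genes passed the limit and others did not. Of 14 genes for endothelial growth and guidance factors 6 were higher, Sema3d, Sema3c (2.71), Pdgfd (2.46), Edn3 (2.36), Angpt2 (1.78) and Cxcl12, and 2 were lower, Vegfd and the Tie2 agonist gene Angpt1 (0.595). Of 12 epithelial growth factors 4 were higher, the Wnt ligands Wnt11 (2.35) and Wnt5a (1.81), Igf1 (2.02) and Tgfb2 (1.72). In the TGF-beta list 6 of 18 were higher, with Il11 (2.33), Tgfb3 (2.10) and the feedback gene Pmepa1 (1.64), and Nox4 (0.651) was lower. Of 15 hedgehog and Wnt pathway genes, the co-receptor gene Cdon (2.92) and the transcription factor Gli1 (2.06), a target of the pathway, were higher with Boc, Gli2, Gas1 and Sfrp1, while the Wnt feedback inhibitors Notum (0.415) and Znrf3 (0.570) were lower. Lepr, which drives the label, was at 47.9 CPM in negative and 51.2 in positive cells (0.935 [0.843–1.04]), and 140 CPM in Pi16-positive cells.

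**Figure D3:**
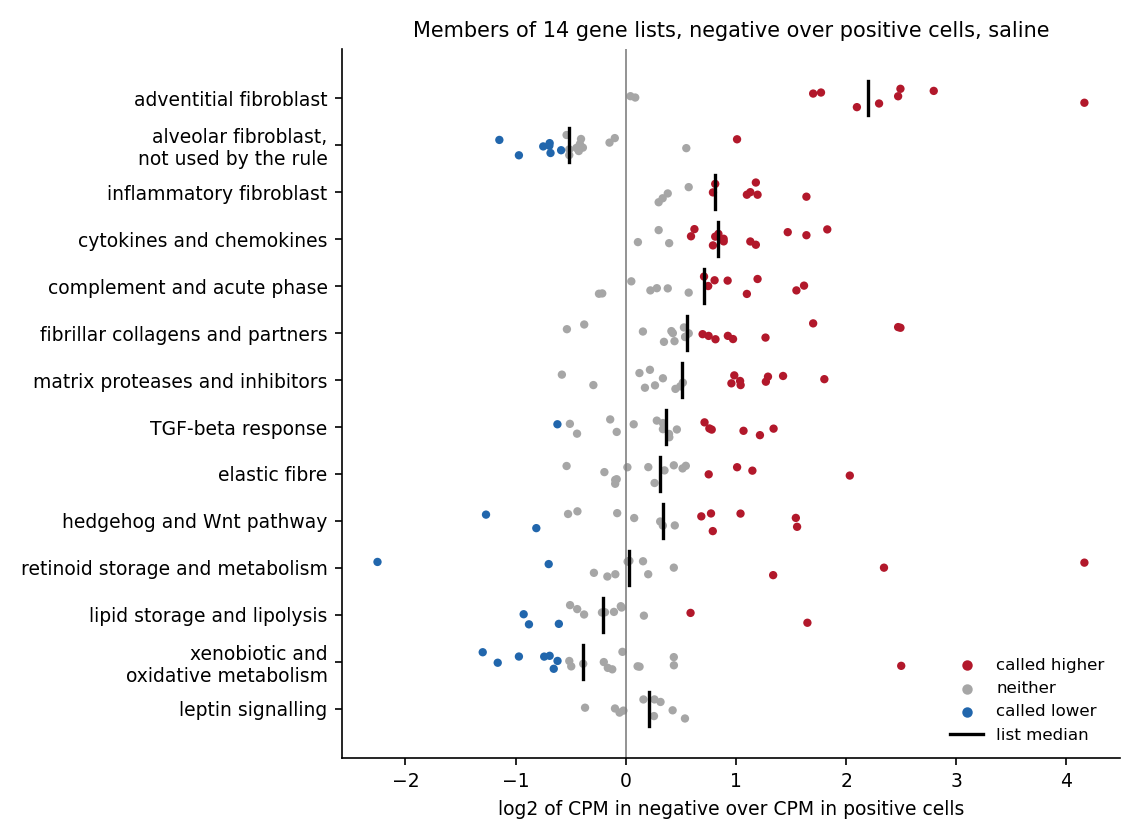
Log2 ratio of CPM, negative over positive saline cells, of each measured gene of 14 lists, with the median of each list marked. The adventitial list has its median at 2.20 and the list of alveolar genes that the choice did not use at -0.51.

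The nuclear transcript Malat1, often high in damaged cells, was lower in negative cells (0.640), and it was the 1 lower gene of 10 measured in the RNA quality list, which had a median log2 ratio of 0.00 and, summed with this abundant transcript, a ratio of 0.756. Among 26 immediate early and heat shock genes, which dissociation can induce, 5 were higher and 2 lower, with Fos at 2567 CPM in negative and 3944 in positive cells (0.651) and Myc at a ratio of 3.56. The part of either in the other results was not tested.

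Levels of most named genes were graded by how many of Slc7a10, Colq and Mapt a cell held. Groups with 0, 1, 2 and 3 of these genes had 1548, 1449, 1031 and 369 cells and median depths of 7353.5, 6522, 6417 and 6702 UMIs. Cdkn2c stood at 75.8, 182, 278 and 350 CPM and Tmem100 at 45.0, 117, 161 and 188 CPM in these groups. Dcn ran the other way, at 425, 107, 56.7 and 13.3 CPM, as did Rbp4 at 308, 98.7, 23.9 and 12.5 CPM and C4b at 746, 340, 156 and 104 CPM. Over the named genes, all 12 lower ones and 7 of the 12 higher ones ran one way over the groups. These genes were named for their ratio between the group with none and the other groups together. The step from that group was thus largely set by the choice, and the count is a description. The 5 that did not were Igha, Ereg, Aqp1, Cd9 and Ly6a, the last at 58.3, 11.8, 2.80 and 10.2 CPM.

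**Figure D4:**
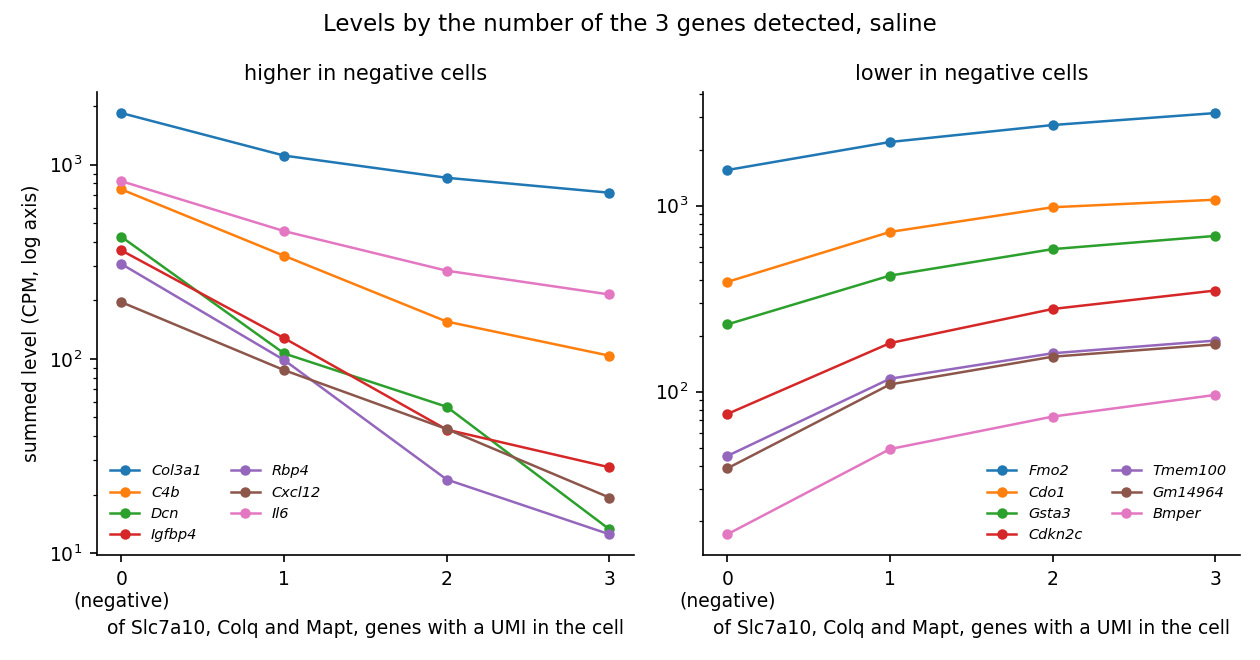
CPM (log axis) in saline alveolar fibroblasts with 0, 1, 2 or 3 of Slc7a10, Colq and Mapt counted (x axis), for 7 genes higher in negative cells on the left and 7 lower on the right. Dcn was at 425 CPM with none of the genes and 13.3 CPM with all, and Cdkn2c at 75.8 and 350 CPM.

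Negative cells were mixed in how many adventitial markers they carried. At 4000 UMIs they had a median of 2 of the 17 markers, against 1 in positive cells. Of the negative cells 409 (26.4%) had 0 or 1 marker, 721 (46.6%) had 2 or 3 and 418 (27.0%) had at least 4, while of the positive cells 1637 (57.5%), 1072 (37.6%) and 140 (4.91%) did. Within each of these bands negative and positive cells still differed in several genes, while other differences did not hold in each band. C4b stood at 463 CPM in negative and 151 in positive cells with 0 or 1 marker, 705 and 300 CPM with 2 or 3, and 1027 and 636 CPM with at least 4. Tmem100 stood at 86.9 and 161 CPM, 42.0 and 130 CPM, and 17.4 and 67.5 CPM in the same bands. Cdo1 stood at 625 CPM in negative and 1010 in positive cells with 0 or 1 marker and 186 and 355 CPM with at least 4. Eln, in contrast, stood at 907 CPM in negative and 1018 in positive cells with at least 4 markers. Saa3 stood at 109 and 254 CPM and C3 at 1459 and 1426 CPM in that band. Among cells with 0 or 1 marker, 14 of the 24 named genes kept the size limit and the 10 that did not were all higher genes. Adh7 and Ly6a, among these 10, are themselves among the 17 markers. The band thus removed their UMIs in advance, and their loss is no finding. There Tcf21 was at 581 CPM in negative and 843 in positive cells, and Npnt at 1347 and 1784 CPM.

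**Figure D5:**
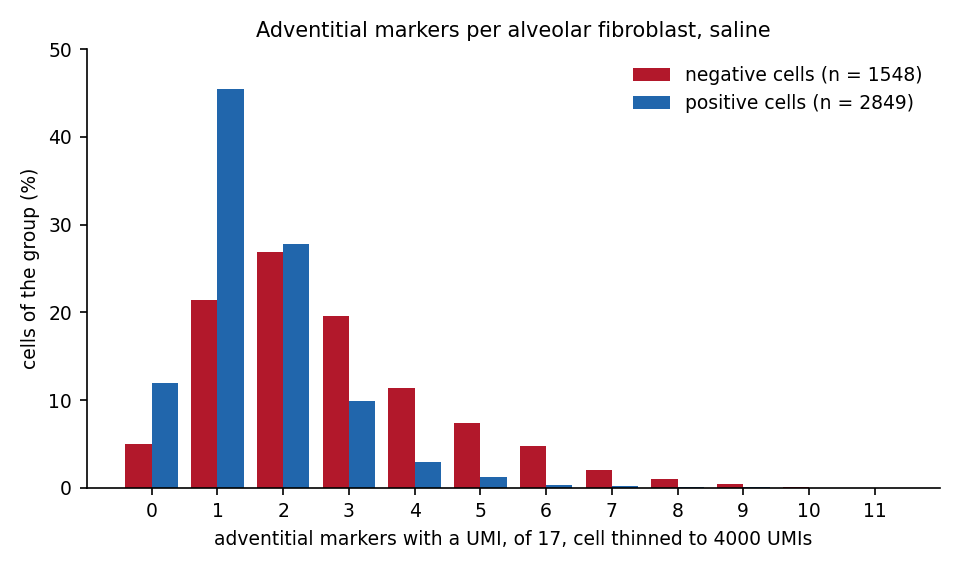
Percent of cells (y axis) by the number of 17 adventitial markers with a UMI at 4000 UMIs (x axis), for negative and positive saline cells. The median is 2 markers in negative and 1 in positive cells.

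Some genes varied far more among negative cells than counting gives. Over 6585 genes the median variance over mean at 4000 UMIs was 1.05, while it was 112 for the acute phase gene Saa3 and 69.3 for Lcn2, an iron-siderophore binding protein. Saa3 had a UMI in 79 members, 1 of them with 317, and 15 members held 73.0% of its UMIs. Ccl2 had a value of 28.0 with UMIs in 411 members, and Igfbp5 21.3 with 242. Malat1 (46.5), the metallothionein gene Mt1 (36.0) and the calcification inhibitor gene Mgp (28.4) varied across most cells. The epithelial transcripts Sftpc (64.7, 98 members), Ager (22.1) and Scgb1a1 (20.1, 139 members), the immunoglobulin gene Igkc (49.8, 27 members) and Ccdc163 (23.5, 43 members) completed the 12 most variable genes. Across the 1548 members of this library, Pearson's r of UMIs at 4000 was 0.44 for Ccl2 with Ccl7, 0.33 for Igfbp4 with Rbp4, 0.26 for Dcn with Igfbp4 and -0.40 for Malat1 with Mgp, as a description.

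The same choice in the bleomycin library, which the rule did not use, gave 1408 negative and 321 positive cells, so that 81.4% [79.5–83.2] of alveolar fibroblasts were negative. The exclusions cut the libraries unequally. The Hp limit removed 1141 bleomycin cells and left 1750, against 94 removed and 4440 left in saline. The Hhip limit removed 1750 and left 3195, against 950 and 4597. The bleomycin values describe the cells left after these steps. The share was 63.6%, 67.8%, 80.6% and 88.3% from the shallowest to the deepest bin, above the saline share in each. In cells chosen on the other genes there, Slc7a10 stood at 6.42 CPM in negative and 36.1 in positive cells (0.178), Colq at 2.37 and 15.5 CPM (0.153) and Mapt at 6.50 and 39.4 CPM (0.165). Median depth was 12188.5 UMIs in negative and 9327 in positive bleomycin cells. Of the genes higher in saline negative cells that could be measured in bleomycin, 317 of 358 (88.5%) had a ratio above 1, and of the lower genes 232 of 246 (94.3%) had a ratio below 1, where 39.2% of all 7659 genes had a ratio above 1. Past the size limit in the same direction were 150 higher and 118 lower genes, and in the opposite direction 4 higher and 0 lower genes, where the limit called 4.35% of genes higher and 6.24% lower in bleomycin, together 10.6%. Inmt stood at 488 CPM in negative and 1650 in positive bleomycin cells (0.296), Gsta3 at 53.9 and 283 CPM (0.191) and Dcn at 514 and 200 CPM (2.57). Alveolar markers outside the choice had 10 of 19 lower and none higher, with a median log2 ratio of -0.74. Il6 (1.03), C3 (1.09) and Bmper (0.890) were near 1 there, and the difference of each from its saline ratio was not tested.

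Between bleomycin and saline, negative cells had 414 genes at least 2-fold higher (5.33%) and 442 at least 2-fold lower (5.69%) in bleomycin. Together these were 11% of the genes. Positive cells had 394 higher (4.98%) and 275 lower (3.48%), together 8.46%. In negative cells Spp1, the matrix glycoprotein osteopontin, stood at 7421 CPM in bleomycin and 0.416 CPM, or 5 UMIs, in saline, and Cthrc1, a marker of fibrotic fibroblasts, at 176 and 0.416 CPM. Col1a1 stood at 3541 CPM in bleomycin and 875 in saline negative cells (4.05), beside 1779 and 519 CPM in positive cells (3.43). Lepr stood at 7.54 and 47.9 CPM in negative cells (0.157) and 17.8 and 51.2 CPM in positive cells (0.348), and Inmt at 488 and 3074 CPM (0.159) and 1650 and 4384 CPM (0.376). Of 14 genes of fibrotic fibroblasts, 12 reached 10 CPM in negative cells of either treatment, and all 12 were higher in bleomycin. Genes that reached it in bleomycin alone, such as Spp1 and Cthrc1, had to be higher there to some degree. The minimum thus set part of this count. Of the 19 alveolar markers outside the choice 7 were lower. These values cover only cells left by the exclusions, which cut the libraries unequally. Treatment and library cannot be told apart with 1 library each.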

How the data were processed

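Cells of 1 bleomycin and 1 saline library were analysed. The authors deposited raw UMI counts per gene and cell as 10x matrices, made with Cell Ranger 6.1.2 on mm10, per the submitters' processing notes. Coordinates come from GENCODE M21, which matched 32158 of 32285 gene IDs. Cells were chosen by the criteria in the text, and the positive cells were taken to share every criterion but the 3 genes. The members and the gene lists were chosen with earlier results of these data known. UMIs were summed per group and divided by the group's total (CPM). A gene counted as higher or lower at a ratio of 1.5 (2 between treatments), at least 10 CPM in the higher group and an interval that did not reach 1. Simulated Poisson sums with known changes served to test this rule. It called 50 of 50 genes changed 2-fold, 0 of 50 changed 1.2-fold and 2 of 7293 unaltered. The simulation held counting error and no spread between cells. It thus cannot show how the rule treats genes carried by few cells. Named genes were the 12 highest and 12 lowest ratios past the rule that pointed the same way after each cell was thinned to 4000 UMIs, leaving out the genes that chose the cells, with list members past the rule, the 12 most variable genes and the 8 highest and 8 lowest between treatments, of which some are printed. A gene with no UMI in a group was set at 3 UMIs there. Shares of cells and marker numbers were taken after thinning. Scrublet in scanpy 1.11.5 was run per library. Alternatives were thinning, deeper cells, more markers, Slc7a10 alone, doublets removed, other positive cells, mean over cells, TMM scaling (edgeR 4.0.16 in R 4.3.3), other limits and, added after seeing the data, cells with at least 7 alveolar markers, with 0 or 1 adventitial marker, or without other types' markers. Python 3.11.15, NumPy 2.4.6, SciPy 1.17.1, pandas 2.3.3 and matplotlib 3.10.9 were used. UMIs per library and cell are in the text. Intervals cover counting error only.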

Additional observations from a re-analysis of the deposited data

Results flagged for a closer look

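Ccl11, the eotaxin gene, pointed opposite ways in the 2 libraries when all negative and all positive cells were summed. In bleomycin it stood at 48.3 CPM in negative and 86.0 CPM in positive cells, a ratio of 0.562 [0.493–0.643], and in saline at 59.3 and 38.5 CPM, a ratio of 1.54 [1.39–1.71]. With 1 library per treatment the difference between these ratios was not tested. After thinning, Ccl11 had a UMI in 83 saline negative cells, and 15 of them held 55.2% of its UMIs. Within saline its direction also differed by adventitial marker number. Ccl11 stood at 23.6 CPM in negative and 16.4 in positive cells with 0 or 1 marker, and 72.1 and 52.8 CPM with 2 or 3. With at least 4 markers it stood at 67.0 and 129 CPM, the direction seen in bleomycin. The other 3 genes higher in saline and lower in bleomycin, named after their values were seen, were Apod (0.636 in bleomycin, 1.67 in saline), Gbp6 (0.550 and 1.54) and Nnat (0.645 and 1.55).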

How the results depend on the processing

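With each cell thinned to 4000 UMIs first, 46.8% of alveolar fibroblasts were negative, and between treatments 331 genes were higher and 252 lower in negative cells. Cells with at least 8000 UMIs left 595 members (47.6% negative), ratios of 0.307, 0.284 and 0.276 for Slc7a10, Colq and Mapt in cells chosen on the other genes, and 89.6% of lower genes on the same side in bleomycin. The complement median was 0.32 in these deeper cells and 0.68 with thinning first, against 0.71 in the main choice. At least 5 markers gave 32.1% negative. Slc7a10 alone gave 2477 members (56.3%) and 170 lower genes, and positive cells with at least 3 UMIs of the 3 genes gave 694 lower genes. At least 7 markers left 318 members (19.0%) and ratios of 0.642, 0.490 and 0.561. Cells with 0 or 1 adventitial marker left 409 (19.99%) and ratios of 0.721, 0.529 and 0.652; there the median of the hedgehog and Wnt list turned to -0.048, Aqp1 to 0.964 and Igkc to 0.869. Positive cells of the quality filter alone, the other reading of which cells to compare with, gave 268 higher and 242 lower genes, an adventitial median of 1.02, a complement median of 0.25 and a peribronchial median that turned to -0.33. A 2-fold limit gave 201 higher and 66 lower genes, and no CPM minimum gave 1068 and 868, and 1151 and 1192 between treatments. The causes were not tested. Of list medians, 354 alternative values stayed close, 136 moved and 2 turned. Only lists with a larger median in the main choice could count as turned, and some smaller medians changed sign as well. With thinning first, the endothelial growth factor median went from 0.27 to -0.006 and the fatty acid median from 0.10 to -0.03. Of the 24 named genes, 16 passed the size limit with at least 7 markers and 14 with 0 or 1 adventitial marker, with higher genes lost. With 0 or 1 adventitial marker, the loss of Adh7 and Ly6a was set in advance, as both are among those markers. The size limit includes the minimum of 10 CPM, so a gene could be lost while its ratio stayed past 1.5-fold. Thinning first and Slc7a10 alone left 20 each (without Adh7, Igha, Ereg and Jchain), the mean over cells 21 (without Igha, Ereg and Jchain), at least 8000 UMIs 22 (without Crabp1 and Cobll1), positive cells of the quality filter alone 22 (without Igha and Cd9, at 1.09) and at least 5 markers 23 (without Adh7). No library could be left out with 1 per treatment. No paired analysis was possible because each treatment had 1 library and the comparison is between cells of the same library. Depth limits the least abundant named genes, such as Adh7, whose level rests on 129 UMIs in negative and 12 in positive cells.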

Other observations

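Transcription factor genes of mesenchyme differed in a few members. Of 27 measured, Foxf1 (2.01), Gata6 (19.4 CPM in negative against 6.70 in positive cells, 2.90 [2.33–3.61]), Runx1 (2.02) and Osr1 (1.57) were higher in negative cells, and Foxf2 (0.550) and Tbx2 (0.618) were lower. Ion channel and junction genes had 3 of 12 higher, among them the gap junction gene Gja1 at 31.9 CPM in negative cells, a ratio of 5.23 over positive cells, beside Kcnj8, and 1 lower. Ptgs2, the inducible cyclooxygenase, stood at 323 CPM in negative and 86.2 in positive saline cells (3.74 [3.53–3.96]) and at 740 and 378 CPM in bleomycin (1.96), and was chosen for mention after its values were seen. Contractile genes had 5 of 18 higher and 1, Tagln, lower, with a median log2 ratio of 0.05; the higher ones were Acta2, Myl9 (2.34), Csrp2 (2.32), Myh9 (1.58) and Tpm2 (1.54). Leptin pathway genes had none of 10 past the limit in either direction, with a median log2 ratio of 0.21. As the limit called 9.51% of all genes, none of 10 does not set this list apart. Glucocorticoid response genes had 2 of 17 higher and 4 lower, with Tsc22d3 at 0.499 and Mt2 at 1.69.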
